A study of Mus musculus with 20 samples.

Results

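The response of mouse peripheral blood to 7 Gy of X-rays was taken over both genotypes of the study at once. The comparison set all 10 arrays of irradiated mice against all 10 arrays of sham-irradiated mice, which together are the 20 arrays of the series, with genotype and replicate number as additive terms. Its purpose is a dose response that does not depend on genotype, including small differences that 5 arrays against 5 within a genotype do not reach.

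Blood was drawn by cardiac puncture 24 h after whole-body exposure or sham exposure of male mice on the C57BL/6 background, 8 to 10 weeks old. The mice were wild-type (WT) or lacked interleukin 10 (Il10-/-, the B6.129P2-Il10tm1Cgn/J line, which carries the targeted allele in every cell), and the genotypes were bred as littermates from heterozygous parents. Each of the 4 groups (WT 0 Gy, WT 7 Gy, Il10-/- 0 Gy, Il10-/- 7 Gy) has 5 arrays, listed as separate mice, and all RNA was depleted of globin transcripts. Loss of interleukin 10, a cytokine that restrains macrophages and T cells, predisposes mice to chronic inflammation of the bowel, so the pooled comparison covers healthy and inflammation-prone animals of a single sex, a single dose and a single time.

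In irradiated cells, double-strand breaks stabilise p53, a transcription factor that switches on genes for cell-cycle arrest, apoptosis and its own restraint. Resting lymphocytes, B cells above all, are among the most radiation-sensitive cells of the body, while mature granulocytes, platelets and red cells no longer divide. Damaged cells are cleared by macrophages, and nucleic acid that reaches the cytosol can start a type I interferon response.

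All levels below are log2 intensities of single-colour Agilent probes relative to the median, on the same array, of 9228 probes that were well above background on all 20 arrays. A feature is a probe, and a gene is read by its feature with the highest mean signal. A difference is the 7 Gy minus the 0 Gy level from limma, given with its standard error (SE), and a feature is called where p is below 0.001 at a Benjamini-Hochberg rate under 10%, adjusted over all features tested. Genomic positions are those of the probes on mouse build mm9, as the array files give them.

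The share of spots well above background ran from 29.9% to 57.8% between arrays, and 4 arrays lay under 40% (WT 0 Gy replicates 4 and 5, Il10-/- 7 Gy replicates 3 and 4). Replicates 1 and 2 were the closest pair in all 4 groups. Their robust SD of difference was 0.14 to 0.23 on the log2 scale, against 0.25 to 1.09 in the 36 other pairs within groups, and a repeated spot varied within 1 array by an SD of 0.078 to 0.126 (0.379 on WT 0 Gy replicate 5). Whether replicates 1 and 2 of a group share RNA was not tested. They were counted as separate samples, and every SE and p-value below treats them so unless averaging is named. Counts with replicates 1 and 2 of each group averaged into 1 sample are given beside main ones. The Il10 probe was well above background on 10 of 10 arrays labelled Il10-/- and on 0 of 10 labelled WT. The sources used here do not place that probe relative to the altered part of the gene, so it does not check the genotype, and Il10 did not pass the filter on dim probes.

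Irradiation was followed by a wide change in both directions. Each array was centred on a median of its own probes, so the balance of rises and falls depends on the scaling. Of 22997 features that passed the filter, 4888 were called (21.3%), of which 2244 were higher and 2644 lower after 7 Gy. By gene, 3294 of 15273 were called (21.6%), 1649 of them higher (10.8%) and 1645 lower (10.8%). The median difference over all genes was −0.03, and over all features −0.06. With replicates 1 and 2 averaged, 3406 features were called, 1677 higher and 1729 lower. On the values as the authors scaled and filtered them, 56.0% of the called features were higher, against 45.9% here. Over the alternatives this share ran from 38.8% to 56.2%.

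The groups separated fully for a large part of the called features. At 1666 of the 22997 features (7.24%) all 10 irradiated arrays lay above, or all 10 below, the 10 sham arrays. Of these, 1648 were called, 755 higher and 893 lower. By gene, read by the brightest feature, 1162 were called without overlap. Calls were more frequent among brighter features, from 10.04% in the dimmest of 3 equal classes of mean signal to 31.03% in the brightest.

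The median size of the called differences was 1.09 on the log2 scale, with 128 features under 0.5, 1973 from 0.5 to 1, 2161 from 1 to 2, and 626 above. The smallest called difference was 0.39. Taken alone with the same threshold, the WT arrays gave 2090 called features (9.09%) and the Il10-/- arrays 2433 (10.6%), with 1139 shared.

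**Figure D1:**
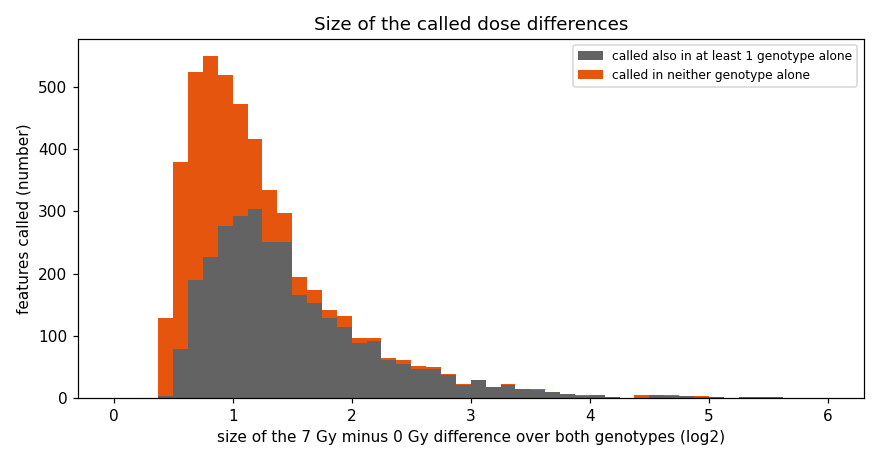
Number of called features (vertical axis) by the size of the pooled log2 difference between 7 Gy and 0 Gy (horizontal axis), stacked by whether the feature was also called within a genotype. The 1870 features called only over both genotypes sit at the small sizes, with a median of 0.82, against 1.32 for the 3018 others.

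The pooled comparison called 1870 features (8.13%) that neither genotype called alone. Of these, 814 were higher and 1056 lower, and 1325 had a difference under 1 (515 higher, 810 lower). Their median size was 0.82, against 1.32 for the 3018 features that were also called within a genotype, as the histogram of difference sizes shows. By gene, 587 were called higher (3.84%) and 653 lower (4.28%) only over both genotypes. In the other direction, 366 features were called within a genotype and not in the pooled comparison. With the slide as a term in the fits within a genotype too, these called 1750 and 1712 features, and the number called only by the pooled comparison was 2534.

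Among 200 features given a known change of 0.75 in simulated arrays of the same spread, the pooled comparison called 64 and each genotype alone called 0. At a change of 1 the pooled comparison called 121 of 200 and each genotype alone again 0. At a change of 2 it called 195, against 133 in WT and 136 in Il10-/- alone. In these runs the pooled comparison also called 9, 17 and 26 features that had been given no change. All but 200 features had no dose effect, so the Benjamini-Hochberg limit was harder to reach than in the data. Noise was drawn separately for each array, without the closeness of replicates 1 and 2. The counts therefore do not give the recovery in the data.

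About as many p53 targets were called higher as were not. Of 55 listed genes, 49 passed the filter, of which 25 were called higher and 3 lower; the median difference was 0.93 (0.97 within WT and 0.84 within Il10-/-). The arrays did not overlap between doses for 17 of them, and 5 were called only over both genotypes. Over all genes, 1162 of 15273 were called without overlap. Called only over both genotypes were 3.84% of all genes higher and 4.28% lower. With replicates 1 and 2 averaged, 20 were called higher and 2 lower, and with another background correction (normexp) 10 higher and 1 lower. The median of the list was 0.07 with normexp and 1.41 on the authors' values. In the share of genes called higher, 51.0% of the list stood against 10.8% of all genes.

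Cdkn1a, the p21 inhibitor of cyclin-dependent kinases (probe at chr17:29237377-29237436), had the widest rise on the list. Its level was −4.89 to −2.74 on the sham arrays, with a median of −3.29, and 0.61 to 2.28 on the irradiated arrays, with a median of 1.24. The arrays did not overlap, and the difference was 4.89 (SE 0.26), a 29.6-fold rise (adjusted p = 5.01e-09). Over the alternatives the difference ran from 2.64 to 5.49.

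Phlda3, which restrains the survival kinase Akt (probe at chr1:137665642-137665701), rose from a range of −1.61 to −0.70, median −1.35, to a range of 2.22 to 3.15, median 2.55. It varied little between arrays of a dose, and its adjusted p, 4.15e-11 for a difference of 3.83 (SE 0.13), was the smallest of the genes named here. Within WT the difference was 3.85 and within Il10-/- 3.80. Slc19a2, a thiamine transporter, rose by 3.08 (SE 0.32) without overlap, but it was well above background on 4 of 10 sham arrays and was not called with normexp, which gave 0.66.

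Ccng1, cyclin G1 (probe at chr11:40562427-40562486), lay between −2.83 and −1.87 on the sham arrays, median −2.13, and between −0.11 and 0.40 on the irradiated ones, median 0.21. The difference of 2.35 (SE 0.12, adjusted p = 3.95e-09) came with no overlap. Aen, an apoptosis-enhancing nuclease, rose by 2.13 (SE 0.17), from a median of −0.83 to 1.23. The array file places its probe on another chromosome than RefSeq places the gene, so no position is given and the measured transcript is uncertain.

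Apoptosis genes of the list were among those called higher. Bax, which permeabilises mitochondria, went from −0.30 to 0.84, median 0.46, to 2.18 to 2.70, median 2.33, a difference of 2.01 (SE 0.16). Bbc3, which encodes the Bax activator PUMA, rose by 1.70 (SE 0.13), and its arrays did not overlap either. Bok, a relative of Bax, rose by 2.46 (SE 0.45), but it was well above background on 2 of 10 sham arrays, its ranges overlapped, and it was not called with normexp or with the liver and heart covariates.

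The 3 p53 targets that fell were Ddb2, Ptp4a3 and Gadd45a. Ddb2, a sensor of damaged bases, changed by −0.82 (SE 0.14), Ptp4a3, a phosphatase, by −0.90 (SE 0.21), and Gadd45a, a growth-arrest gene, by −1.16 (SE 0.20). All 3 had overlapping ranges. With the levels of liver and heart transcripts as covariates, the falls of Ddb2 and Ptp4a3 were not called.

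**Figure D2:**
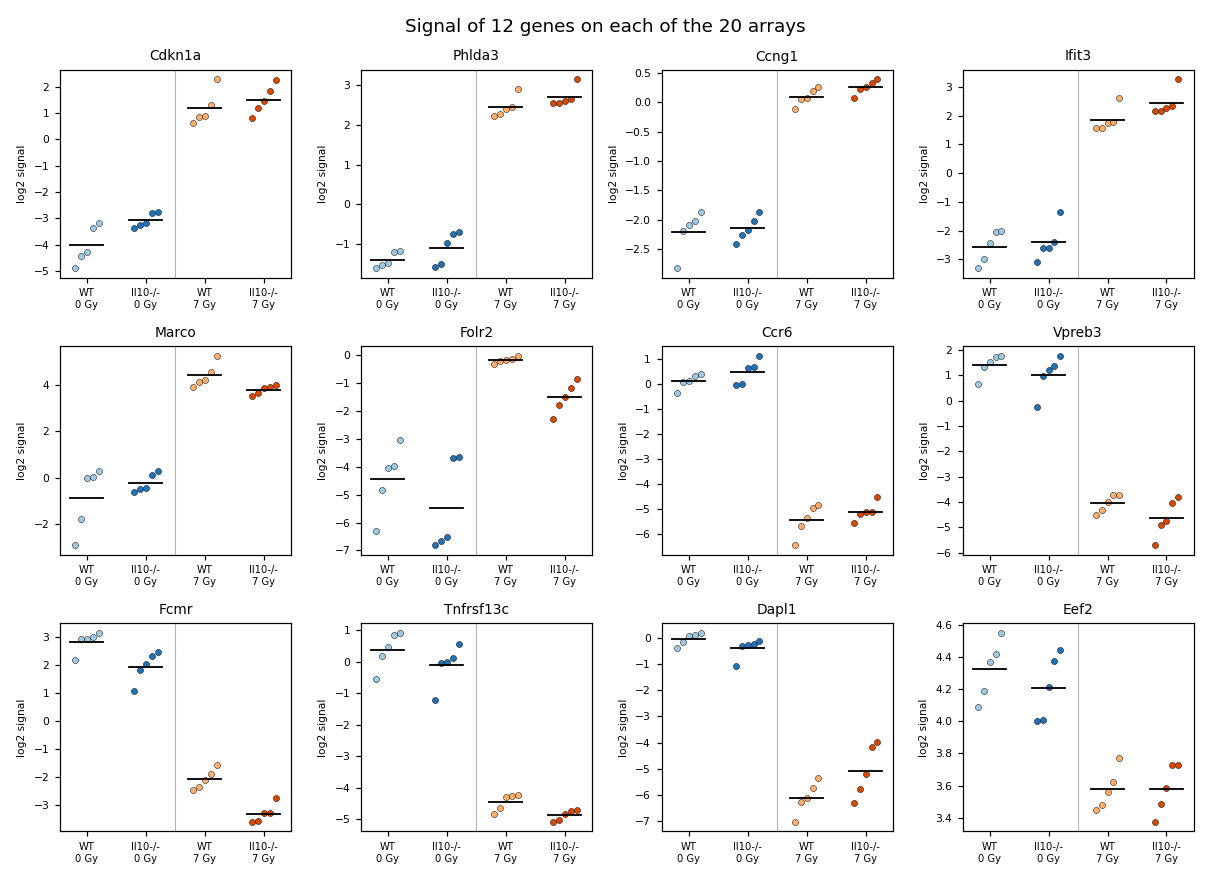
Log2 level of 12 genes (vertical axis, relative to the array's median) on each of the 20 arrays, by group, sorted by value within a group, with a bar at the group mean. In each panel the 5 WT and 5 Il10-/- arrays at 7 Gy lie on the same side of the sham arrays, also for Eef2, where the pooled difference was only −0.69.

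Most interferon-stimulated genes were called higher. Of 58 that passed the filter, 42 were called higher (72.4%) and 0 lower, while 8 had a negative difference, and the median was 1.49 (1.58 within WT and 1.41 within Il10-/-). The mean level of the list ran from −0.99 to −0.48 on the sham arrays, with a median of −0.61, and from 0.41 to 1.16 on the irradiated arrays, with a median of 0.79, so the doses did not overlap. With replicates 1 and 2 averaged 41 were called higher and with normexp 29, and without Il10-/- 0 Gy replicate 4 the number called lower was 4.

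Ifit3, an antiviral partner of Ifit1 (probe at chr19:34663105-34663164), lay between −3.32 and −1.35 on the sham arrays, median −2.52, and between 1.57 and 3.27 on the irradiated ones, median 2.17. The difference was 4.63 (SE 0.23), a 24.7-fold rise (adjusted p = 2.58e-09). Its close copy Ifit3b rose by 4.94 (SE 0.29), and the array cannot be taken to separate the pair. Ifit1, which recognises viral RNA caps (probe at chr19:34723796-34723855), rose from −3.00 to −2.05, median −2.40, to −0.99 to 0.76, median 0.17, a difference of 2.49 (SE 0.17, adjusted p = 4.64e-08). None of these ranges overlapped. Ifi44 rose by 3.43 (SE 0.27).

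Rsad2, which encodes the antiviral enzyme viperin, went the other way without being called, with a difference of −1.52 (SE 0.41, adjusted p = 0.00777). Isg15, a ubiquitin-like protein, stood at −0.59 (SE 0.23), and Oas3, a sensor of double-stranded RNA, at −0.70 (SE 0.26). These genes were not called in either direction.

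The interferon-stimulated response element, the site bound by interferon regulatory factors, was searched as the letters GAAANNGAAA on either strand, from 250 bases before to 50 after each RefSeq start (GRCm38.p6), with overlapping matches kept. Of 27025 promoters, 3.99% held it, and of the 11572 tested genes with a promoter in the table, 3.98%. Of the listed interferon-stimulated genes with a promoter, 21 of 43 held it (48.8%), and of those called higher, 15 of 30. Over all genes called higher the share was 66 of 1277 (5.17%), and over those called lower 43 of 1218 (3.53%). A match is a description of the letters in this window and not a bound site.

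The following windows of 100 bases show this element in Ifit3, Ifit3b and Ifit1, in Bst2, whose product tethers budding virions and which rose by 3.26, and in Rsad2, which has the element and was not called. Cdkn1a is shown for comparison. Capitals mark the matches, and in Cdkn1a they mark a pair of p53 half-sites. Ifit3 and Ifit3b have the same letters in these windows.
Ifit3, chr19:34583345-34583444, plus strand: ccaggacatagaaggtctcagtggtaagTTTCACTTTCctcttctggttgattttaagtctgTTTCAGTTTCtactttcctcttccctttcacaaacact
Ifit3b, chr19:34607741-34607840, plus strand: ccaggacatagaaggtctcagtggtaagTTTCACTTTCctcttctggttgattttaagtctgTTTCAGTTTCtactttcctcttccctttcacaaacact
Ifit1, chr19:34640749-34640848, plus strand: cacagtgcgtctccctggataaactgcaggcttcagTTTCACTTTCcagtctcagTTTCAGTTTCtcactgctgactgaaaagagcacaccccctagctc
Bst2, chr8:71537545-71537644, minus strand: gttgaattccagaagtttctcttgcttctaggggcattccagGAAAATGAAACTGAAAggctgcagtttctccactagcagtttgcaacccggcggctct
Rsad2, chr12:26456518-26456617, minus strand: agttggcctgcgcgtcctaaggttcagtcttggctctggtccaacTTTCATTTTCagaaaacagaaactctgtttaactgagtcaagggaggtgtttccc
Cdkn1a, chr17:29090872-29090971, plus strand: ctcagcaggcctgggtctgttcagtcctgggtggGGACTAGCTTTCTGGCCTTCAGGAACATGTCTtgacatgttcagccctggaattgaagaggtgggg

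The p53 half-site pair, searched by its consensus with a gap of 0 to 13 bases, was in 0.074% of the 27025 promoters and in 1 of 39 p53 targets with a promoter in the table (2.56%). The positions of these windows are on GRCm38.p6 and cannot be set against the mm9 positions of the probes.

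Of 24 genes that present peptides on MHC class I, 11 were called higher (45.8%, against 10.8% of all genes) and 0 lower. The median was 0.67, and 21 had a positive difference. With the median of all probes 5 were called higher and with normexp 6. H2-T22, a nonclassical class I gene, rose by 1.19 (SE 0.12), and its arrays did not overlap. H2-M2, a class I gene outside the list, was called only over both genotypes, at 0.81 (SE 0.11).

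Transcripts of macrophages and of the acute phase gave several of the widest rises that separated the doses. Of 19 macrophage scavenger and complement C1q genes, 15 were called higher (78.9%, against 10.8% of all genes) and 0 lower. Each of the 15 was without overlap between the doses, against 1162 of all 15273 genes. The median was 2.41 (2.97 within WT and 1.97 within Il10-/-). The count was 15 as well with replicates 1 and 2 averaged and with the liver and heart covariates.

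Marco, a scavenger receptor for bacteria and debris (probe at chr1:122371170-122371230), stood at −2.92 to 0.31 on the sham arrays, median −0.25, and at 3.54 to 5.27 on the irradiated ones, median 3.96. The lowest irradiated array was above the highest sham array by a wide margin, and the difference was 4.67 (SE 0.37), or 25.5-fold. Folr2, a folate receptor of tissue macrophages, rose by 4.12 (SE 0.48) and was well above background on 5 of 10 sham arrays. C1qa, a chain of the C1q recognition molecule, rose by 3.61 (SE 0.44), from a median of −0.53 to 3.06.

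Saa3, an acute-phase serum amyloid that macrophages also make (probe at chr7:53970389-53970448), had the widest rise among the genes named by the rules used here. It ran from −3.21 to 2.93 on the sham arrays, median 1.98, and from 5.58 to 7.85 on the irradiated ones, median 6.44, a difference of 5.34 (SE 0.62). Saa1, a serum amyloid of the liver, rose by 4.79 (SE 0.56). Neither overlapped, but both differences were wider within WT than within Il10-/- (6.97 against 3.71 for Saa3 and 6.05 against 3.53 for Saa1). The interaction of dose with genotype had an unadjusted p of 0.0043 for Saa3 and 0.018 for Saa1 in limma and was not called for either.

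Of 24 acute-phase genes 5 were called higher (20.8%, against 10.8% of all genes), and the median was 3.12. Without the replicate number in the fit 8 were called, and without Il10-/- 0 Gy replicate 4 10 were. The mean level of the list ran from −3.11 to 1.68 on the sham arrays and from −1.27 to 3.68 on the irradiated ones. Anxa8, an annexin, and Pcolce, a collagen-processing protein, were also among the 10 widest separated rises, at 3.95 (SE 0.28) and 3.74 (SE 0.37).

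The monocyte list split, with 13 of 35 called higher (37.1%) and 10 lower (28.6%), against 10.8% of all genes in each direction. With replicates 1 and 2 averaged 5 were called lower, and with the liver and heart covariates 4. Adgre1, a surface receptor of mature macrophages, rose by 2.18 (SE 0.25), and Cd14, the co-receptor for lipopolysaccharide, by 1.96 (SE 0.31). Cx3cr1, the fractalkine receptor of patrolling monocytes, went from −1.74 to 0.52, median −0.08, down to −3.56 to −2.45, median −2.92, a fall of 2.76 (SE 0.22). All 3 were without overlap between the doses.

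Mature neutrophil genes did not move together. Of 33, 5 were called higher (15.2%) and 2 lower (6.06%), against 10.8% of all genes in each direction. The median of −0.02 turned its sign in 16 of 38 other settings. Without Il10-/- 7 Gy replicate 4, 5 were called lower. Padi4, an enzyme of neutrophil extracellular traps, rose by 1.94 (SE 0.30) and Slpi, a protease inhibitor, by 1.77 (SE 0.24). Cd177, a neutrophil surface antigen, fell by 1.83 (SE 0.41), a call lost with replicates 1 and 2 averaged. Of 11 eosinophil and basophil genes 4 were called higher (36.4%) and 2 lower (18.2%). Cpa3, a mast cell and basophil protease, rose by 2.87 (SE 0.35). Il5ra, the interleukin 5 receptor of eosinophils, fell by 1.48 (SE 0.21). Single genes do not give the direction of either cell type.

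B cell genes fell. Of 31 that passed the filter, 27 were called lower (87.1%, against 10.8% of all genes) and 0 higher. Called without overlap were 24 of them, against 1162 of all 15273 genes. All 31 had a negative difference, with a median of −2.87 (−2.87 within WT and −2.76 within Il10-/-). The mean level of the list was −0.59 to 0.91 on the sham arrays, median 0.40, and −2.95 to −2.15 on the irradiated arrays, median −2.59. In these samples of whole blood, fewer cells of a type and less RNA per cell cannot be told apart.

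Ccr6, a chemokine receptor of B cells (probe at chr17:8449933-8449992), had a difference of −5.57 (SE 0.20, adjusted p = 7.33e-11). Its level was −0.38 to 1.11 on the sham arrays, median 0.21, and −6.44 to −4.51 on the irradiated arrays, median −5.17. Only 2 of the 10 irradiated arrays were well above background, so the size of the fall rests on a probe near its floor there. It was −5.56 within WT, −5.58 within Il10-/- and −2.35 over both with normexp.

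Vpreb3, a chaperone of the immature B cell receptor (probe at chr10:75412326-75412385), fell from −0.26 to 1.76, median 1.34, to −5.71 to −3.72, median −4.17, a difference of −5.55 (SE 0.27). Fcmr, the receptor for immunoglobulin M, fell from 1.09 to 3.14, median 2.38, to −3.60 to −1.57, median −2.60, a difference of −5.07 (SE 0.20). Tnfrsf13c, the receptor for the B cell survival factor BAFF, fell from −1.22 to 0.92, median 0.15, to −5.09 to −4.23, median −4.73, a difference of −4.80 (SE 0.19). None of these ranges overlapped, and Vpreb3 was well above background on 6 irradiated arrays, Fcmr on 8 and Tnfrsf13c on 3. With normexp the differences were −2.72, −3.31 and −2.04.

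Fcer2a, the low-affinity receptor for immunoglobulin E, fell by 4.76 (SE 0.29), and Bcl11a, a B-lineage transcription factor, by 4.55 (SE 0.18). Outside the B cell list, Xkrx fell by 4.73 (SE 0.24) and Chst3, a sulfotransferase, by 4.55 (SE 0.32). The sizes depended on the processing. The smallest falls over the alternatives were −1.60 for Fcer2a, −1.71 for Bcl11a, −1.32 for Xkrx and −1.93 for Chst3. Of 9 plasma cell genes only Mzb1, a chaperone of secreted immunoglobulin, was called, with a fall of 1.46 (SE 0.17). That was 11.1% of the list, against 10.8% of all genes called lower.

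All 10 MHC class II genes that passed the filter were called lower, with a median of −1.75. These genes load and present peptides on B cells, dendritic cells and macrophages. H2-Ob, a chain of the class II editing molecule, fell by 3.48 (SE 0.20) in its brighter feature, H2-DMb2 by 3.40 (SE 0.20) and H2-Oa by 3.28 (SE 0.31).

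T cell genes were lower in part. Of 33 T cell genes 12 were called lower (36.4%, against 10.8% of all genes) and 1 higher (3.03%), with a median of −0.65. With replicates 1 and 2 averaged 8 were called lower. Tcf7, a transcription factor of naive and memory T cells, ran from −1.48 to −0.36 on the sham arrays, median −1.01, and from −4.66 to −2.35 on the irradiated ones, median −3.40, a fall of 2.60 (SE 0.22). Cd8a, the CD8 coreceptor, fell by 2.57 (SE 0.34) and Lef1, a partner of Tcf7, by 2.08 (SE 0.23), also without overlap.

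Cd247, the zeta chain of the T cell and NK cell receptors, was the T cell gene called higher, at 1.05 (SE 0.14). That rise was not found with normexp, which gave −0.04, and another Cd247 feature moved the other way. With the liver and heart covariates 3 T cell genes were called lower and 2 higher, and with normexp 2 were called lower.

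Of 19 genes of naive lymphocytes and their homing, 12 were called lower (63.2%, against 10.8% of all genes) and 0 higher. The median was −1.26. Ccr7, the receptor that guides naive cells into lymph nodes, fell by 3.61 (SE 0.32), from a median of 2.37 to −1.52. Dapl1 fell from −1.07 to 0.20, median −0.20, to −7.03 to −3.99, median −5.74, a difference of −5.38 (SE 0.28). The fall of Dapl1 was wider within WT (−6.07) than within Il10-/- (−4.69), with an interaction p of 0.0086 in limma before adjustment. Its irradiated median lay below that of Ccr6, so the size and the contrast of genotypes rest on levels near the floor. Over the alternatives its pooled difference ran from −5.65 to −1.99. Bach2, a transcription factor that keeps lymphocytes naive, fell by 3.40 (SE 0.23).

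Few NK and cytotoxic genes were called. Of 28, 3 were called higher, a share close to the 10.8% of all genes, and 0 lower. The differences were positive for 17 and negative for 11, with a median of 0.20 whose sign turned in 1 of 38 other settings. Gzmb, the granzyme that kills target cells, rose by 1.44 (SE 0.21), Il2rb, a chain of the interleukin 2 and 15 receptors, by 0.97 (SE 0.24), and Nkg7, a granule protein, by 0.64 (SE 0.16). With replicates 1 and 2 averaged, 1 gene of the list was called, and the rises of Il2rb and Nkg7 were not, while 6 were called without Il10-/- 7 Gy replicate 3.

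**Figure D3:**
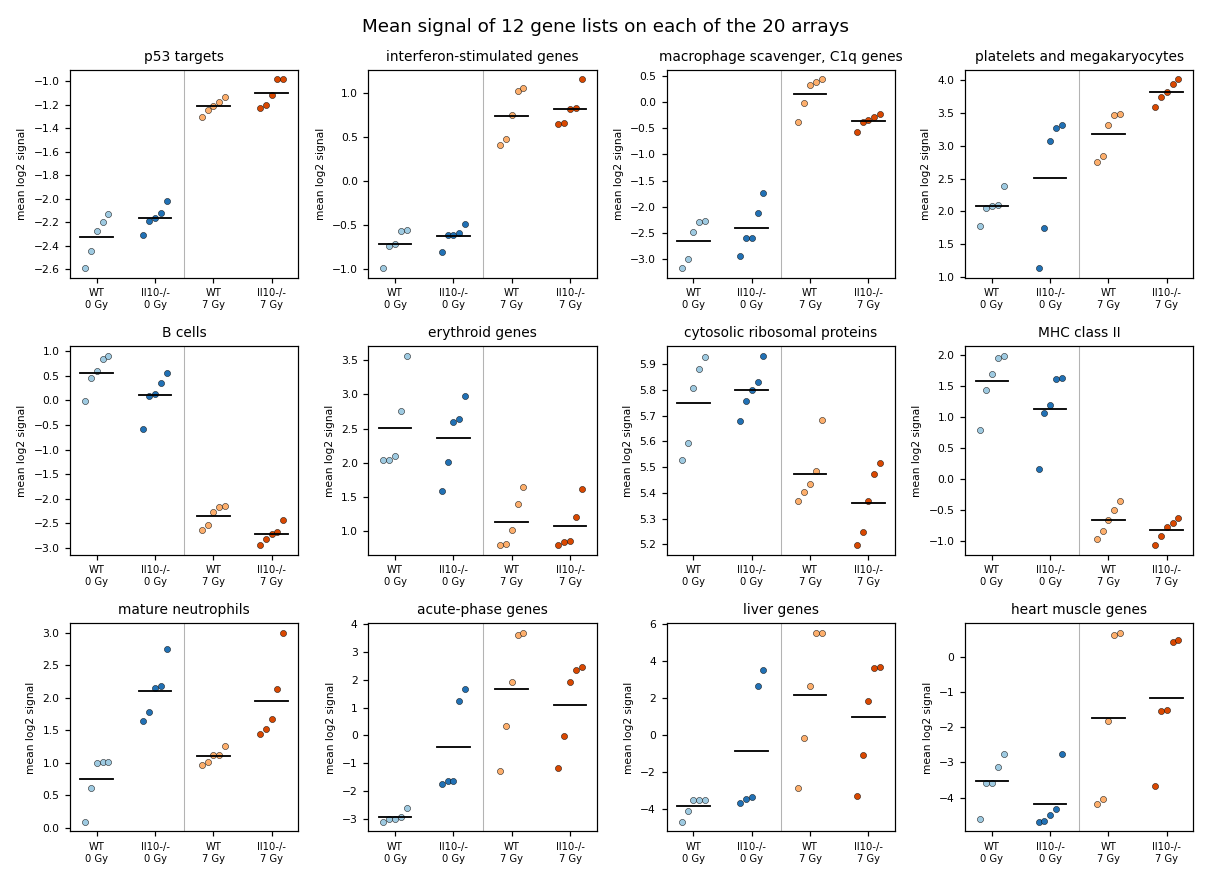
Mean log2 level (vertical axis) of 12 gene lists on each of the 20 arrays, by group, with points sorted by value within a group. The B cell list lay between −0.59 and 0.91 at 0 Gy and between −2.95 and −2.15 at 7 Gy, while the liver list ran from −3.30 to 5.53 among the irradiated arrays alone.

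Most erythroid genes were called lower. Of 49 erythroid genes 32 were called lower (65.3%) and 4 higher (8.16%), against 10.8% of all genes in each direction. The median was −1.44. Add2, which caps actin in the membrane skeleton of red cells (probe at chr6:86069490-86069549), stood at −2.22 to 0.45 on the sham arrays, median −1.16, and at −5.14 to −3.39 on the irradiated ones, median −4.62, a fall of 3.33 (SE 0.29). Its doses did not overlap.

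The 4 erythroid genes called higher were Tal1, a transcription factor of blood stem cells and megakaryocytes too (1.59, SE 0.19), Epor, the erythropoietin receptor (1.56, SE 0.27), Aqp1, the red cell water channel (0.96, SE 0.23), and Nfe2, a factor of platelet formation that is also on the platelet list (0.88).

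All 32 platelet and megakaryocyte genes had a positive difference, with a median of 1.22. Of these, 18 were called higher (56.2%, against 10.8% of all genes), 9 of them only over both genotypes (3.84% of all genes). The mean level of the list was 1.13 to 3.32 on the sham arrays and 2.76 to 4.01 on the irradiated arrays, so the ranges overlapped. Rgs18, a regulator of platelet signalling, rose from 0.84 to 2.25, median 1.86, to 2.99 to 3.78, median 3.26, a difference of 1.58 (SE 0.18). P2ry12, the platelet receptor for ADP, rose by 1.57 (SE 0.19) and Sparc, a matrix protein of platelet granules and other tissues, by 3.03 (SE 0.37). The number called varied with the arrays and the scaling, at 8 without the 4 arrays under 40%, 12 to 20 without any single array (12 without WT 0 Gy replicate 1), 10 with the median of all probes or the 75th percentile, and 31 with the liver and heart covariates.

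**Figure D4:**
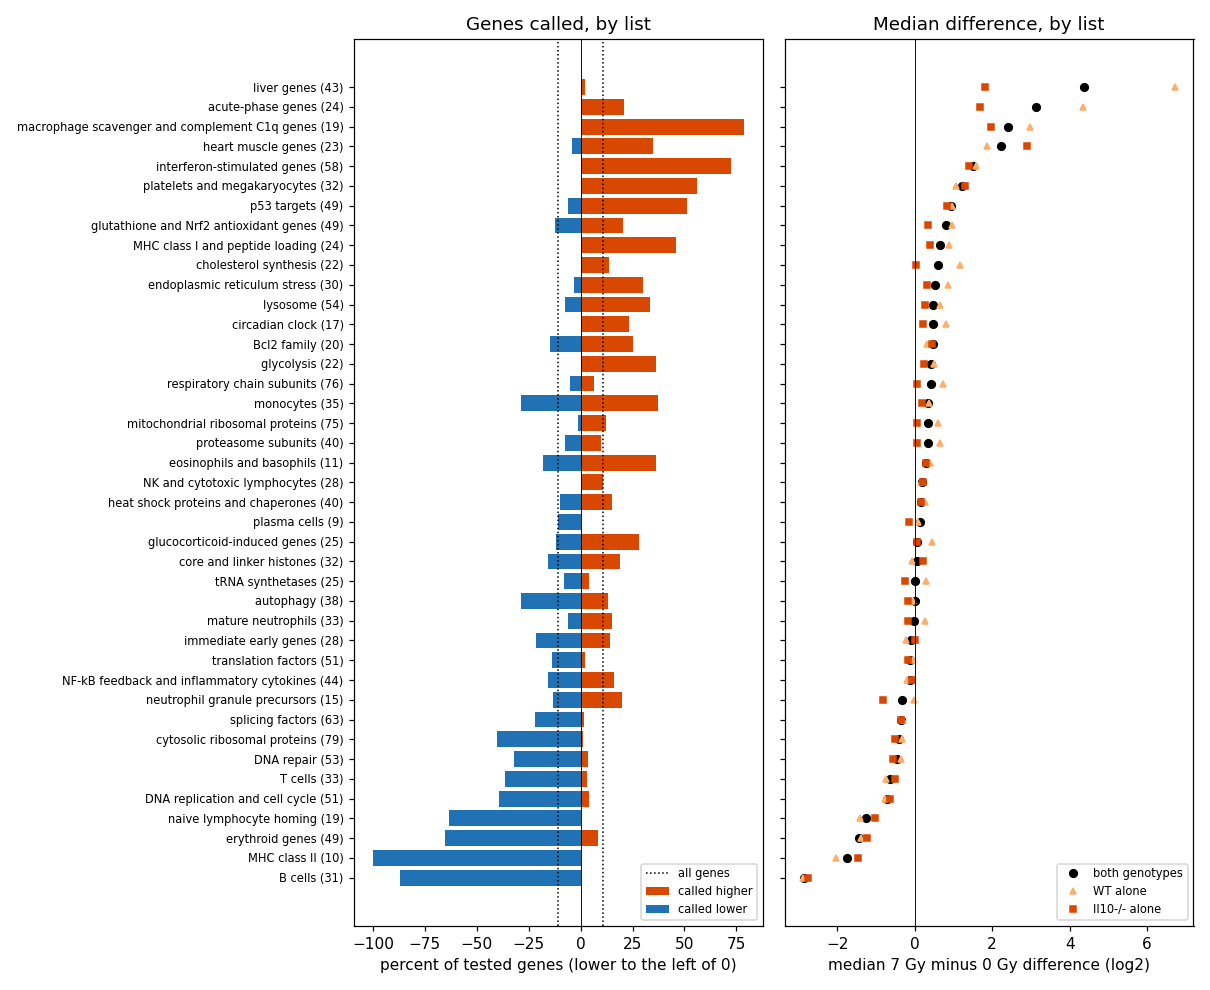
Percent of the measured members of each gene list that were called higher or lower after 7 Gy, with dotted lines at the 10.8% of all genes called in each direction, and beside it the median log2 difference of each list over both genotypes, within WT and within Il10-/-. The 58 interferon-stimulated genes (72.4% higher) and the 31 B cell genes (87.1% lower) stood far beyond those lines.

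The pooled comparison also called differences under 1. The 8 modest falls and 8 modest rises with the smallest p among features that neither genotype called alone ran from −0.98 to −0.62 and from 0.69 to 0.96. The plot of modest differences gives each with its values within WT and within Il10-/-, which the choice by the pooled p makes likely to lie on the same side of 0.

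Eef2, the elongation factor that moves the ribosome along its message (probe at chr10:80644934-80644993), stood at 4.00 to 4.55 on the sham arrays, median 4.29, and at 3.37 to 3.77 on the irradiated ones, median 3.57. The ranges did not overlap, and the difference of −0.69 (SE 0.10, adjusted p = 6.69e-05) was −0.75 within WT and −0.63 within Il10-/-. Naa30, an acetyltransferase of protein N-termini, fell by 0.98 (SE 0.13) and Zfp329, a zinc finger gene, by 0.92 (SE 0.13), neither with overlap. Pkig, an inhibitor of protein kinase A, fell by 0.81 (SE 0.12), from 1.75 to 2.52, median 2.18, to 1.12 to 1.55, median 1.31.

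Cstf2, which acts in mRNA cleavage, fell by 0.97 (SE 0.15), Spata5, an ATPase of ribosome maturation, by 0.91 (SE 0.14) and Ddx46, a helicase of the spliceosome, by 0.80 (SE 0.12). Their ranges overlapped. The feature named Gm8210, at −0.62 (SE 0.09), is placed on another chromosome than the gene in RefSeq and is uncertain.

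Among the modest rises, Bcat2, the mitochondrial aminotransferase of branched-chain amino acids, moved from −2.78 to −2.37, median −2.68, to −2.35 to −1.32, median −1.97, a difference of 0.76 (SE 0.12). Chmp1a, a subunit of the membrane-cutting ESCRT-III machinery, rose by 0.69 (SE 0.10), and these 2 genes had no overlap. Vps25 of the ESCRT-II complex rose by 0.81 (SE 0.12), Ppt2, a lysosomal thioesterase, by 0.84 (SE 0.11), and Anapc11, a subunit of the anaphase-promoting complex, by 0.70 (SE 0.11). Smim19 rose by 0.78 (SE 0.12) and Afp, alpha-fetoprotein, by 0.96 (SE 0.14).

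These small differences depended on the scaling. With each array centred on the median of all 39429 probes, much of which lies near background, 11 of the 16 were not called, and with the normexp background correction 12 were not. All 16 were called with replicates 1 and 2 averaged.

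**Figure D5:**
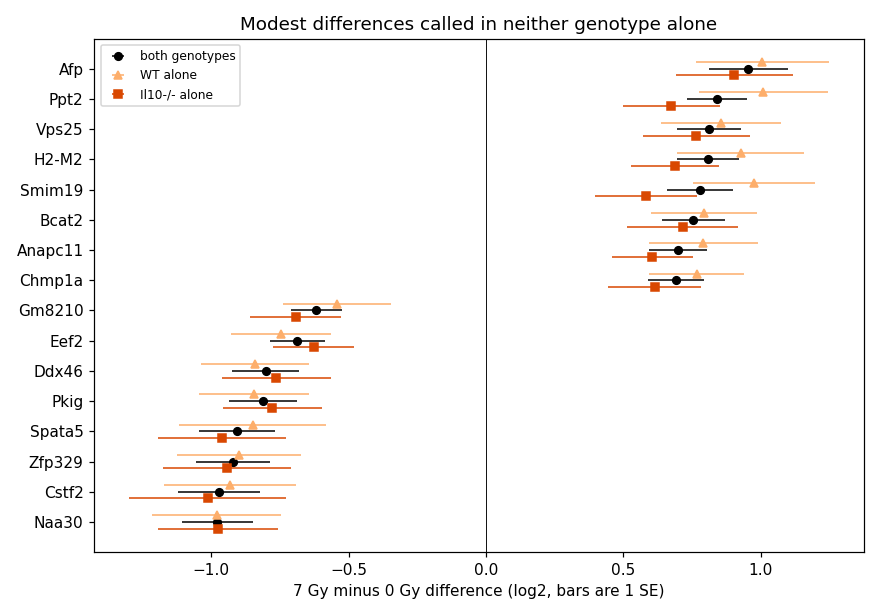
Log2 difference between 7 Gy and 0 Gy (horizontal axis) with 1 SE for 16 genes called only over both genotypes with a difference under 1, for all 20 arrays and for each genotype alone. The 8 falls lie between −0.98 and −0.62 and the 8 rises between 0.69 and 0.96 in the pooled comparison.

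Differences of cytosolic ribosomal protein genes were small. Of 79, 32 were called lower (40.5%, against 10.8% of all genes), 16 of them only over both genotypes (4.28% of all genes). The median was −0.42 (−0.34 within WT and −0.50 within Il10-/-). Called without overlap were 16, against 1162 of all 15273 genes. Rpl8 stood at 6.05 to 6.42 on the sham arrays, median 6.29, and at 5.34 to 5.80 on the irradiated arrays, median 5.58, a difference of −0.74 (SE 0.09) without overlap.

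The features named Rps26 and Rpl4 fell by 0.79 (SE 0.10) and 0.77 (SE 0.10), but the files place them on other chromosomes than the genes, and ribosomal protein genes have many processed copies, so these are uncertain. The 1 member called higher was Rps27l, a p53 target, which rose by 2.00 (SE 0.21), from a median of 0.85 to 2.70. The count of ribosomal falls moved widely with the processing. It was 14 with replicates 1 and 2 averaged, 6 with quantile normalization, 6 with the liver and heart covariates, 1 with the median of all probes and 0 with normexp, while the list's median stayed between −0.66 and −0.21.

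Of 63 splicing factors 14 were called lower (22.2%, against 10.8% of all genes) and 1 higher (1.59%), with a median of −0.34. Only over both genotypes, 9 of the falls were called (4.28% of all genes). These falls also moved with the processing, at 6 with replicates 1 and 2 averaged, 2 with the liver and heart covariates, 1 with normexp and 0 with the median of all probes. Of 51 translation factors 7 were called lower (13.7%, against 10.8% of all genes) and 1 higher. Hnrnpr, an RNA-binding protein of the splicing machinery, fell by 0.90 (SE 0.12) and Clk1, a kinase of splicing factors, by 0.88 (SE 0.14). Eif5, an initiation factor, fell by 1.70 (SE 0.30).

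Of 51 genes of DNA replication and the cell cycle, 20 were called lower (39.2%, against 10.8% of all genes) and 2 higher (3.92%). The median was −0.70, and 10 of the calls were made only over both genotypes (3.84% of all genes higher and 4.28% lower). With the liver and heart covariates 8 were called lower, and with normexp 8. Nusap1, a protein of the mitotic spindle, fell by 2.79 (SE 0.26), from a median of 2.48 to −0.38, and E2f2, a transcription factor of S phase and red cell maturation, by 2.71 (SE 0.35). Cdc25b, a phosphatase of mitotic entry, fell by 2.49 (SE 0.21). Cdc45, a subunit of the replicative helicase, rose by 1.51 (SE 0.25), and Ccnd3 by 0.72 (SE 0.18), though its probe is placed on another chromosome than the gene.

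Of 53 DNA repair genes 17 were called lower (32.1%, against 10.8% of all genes) and 2 higher (3.77%), with a median of −0.45. Parp1, which marks strand breaks with ADP-ribose, fell from −2.61 to −1.23, median −1.71, to −4.67 to −3.22, median −3.78, a difference of −1.99 (SE 0.17) without overlap. Mutyh, a base excision glycosylase, fell by 1.98 (SE 0.32) and Fanca, of the Fanconi crosslink repair complex, by 1.46 (SE 0.17). Polk, a bypass polymerase, rose by 1.34 (SE 0.19), and Rad51b, a recombination mediator, by 1.18 (SE 0.23). Neither rise was called with normexp, and their lowest values over the alternatives were 0.03 and 0.02. With normexp 2 repair genes were called lower and 0 higher, and with the covariates 11 lower and 1 higher.

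Most mitochondrial genes had a positive difference. Of 75 mitochondrial ribosomal proteins 9 were called higher (12%, against 10.8% of all genes) and 1 lower (1.33%), and 69 differences were positive. Their median was 0.34 (0.59 within WT and 0.06 within Il10-/-). Of 76 respiratory chain subunits 5 were called higher (6.58%) and 4 lower (5.26%), and 61 differences were positive. The median there was 0.42 (0.73 within WT and 0.05 within Il10-/-). Without Il10-/- 0 Gy replicate 4, a sham array with high liver transcripts, the counts called higher became 23 and 19, and those of the proteasome went from 4 of 40 to 16. Cox5a, of cytochrome oxidase, rose by 1.15 (SE 0.12) without overlap, and Mrpl32, of the mitochondrial ribosome, fell by 1.61 (SE 0.19).

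Of 54 lysosomal genes 18 were called higher (33.3%) and 4 lower (7.41%), against 10.8% of all genes in each direction. The median was 0.48. Ctsd, the aspartic protease cathepsin D, went from 2.87 to 4.11, median 3.40, to 4.50 to 5.51, median 4.94, a difference of 1.53 (SE 0.14). Lamp2, a lysosomal membrane protein, rose by 1.56 (SE 0.13), also without overlap. Ctse, cathepsin E, fell by 2.83 (SE 0.26). Of 22 glycolysis genes 8 were called higher (36.4%) and 0 lower. They were led by Ldhb, a lactate dehydrogenase chain (2.08, SE 0.39), and Pfkm, the muscle phosphofructokinase (1.92, SE 0.35). Neither was called with the liver and heart covariates. With normexp 2 glycolysis genes were called higher.

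Of 30 genes of endoplasmic reticulum stress 9 were called higher (30%, against 10.8% of all genes) and 1 lower (3.33%). The median was 0.53, with 25 positive differences. Sdf2l1, a partner of the reticulum's chaperones, rose by 1.60 (SE 0.26), and Dnajb9, another, by 1.23 (SE 0.14). The feature named Derl1 rose by 1.85 (SE 0.38) but is placed on another chromosome than the gene. Asns, asparagine synthetase, was the gene called lower, with a fall of 2.71 (SE 0.31). The number called higher was 3 with the median of all probes, 4 with normexp and 14 without Il10-/- 0 Gy replicate 4. Bag3, a partner of Hsp70, rose by 1.56 (SE 0.14). Of 49 glutathione and antioxidant genes 10 were called higher (20.4%) and 6 lower (12.2%). Among them were Srxn1, sulfiredoxin (1.66, SE 0.19), and Gpx1, a glutathione peroxidase of red cells (−1.75, SE 0.20).

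Of 20 genes of the Bcl2 family 5 were called higher (25%) and 3 lower (15%), against 10.8% of all genes in each direction. Bcl2l1, which encodes the survival protein Bcl-xL, fell from 6.21 to 8.30, median 6.94, to 4.30 to 5.90, median 5.06, a difference of −2.13 (SE 0.24) without overlap. Of 38 autophagy genes 5 were called higher (13.2%) and 11 lower (28.9%). The number called lower was 5 with replicates 1 and 2 averaged, 7 without WT 0 Gy replicate 1 and 2 with normexp. Map1lc3b, which coats autophagosomes, rose by 0.84 (SE 0.11) and Atg7, which acts in its conjugation, by 0.92 (SE 0.10). Of 17 clock genes 4 were called higher (23.5%), led by Nr1d1, a repressor within the clock (2.33, SE 0.42), and Dbp, a factor it drives (2.15, SE 0.35).

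Of 44 NF-kB and cytokine genes 7 were called higher and 7 lower (15.9% each, against 10.8% of all genes in each direction). Of 28 immediate early genes 4 were called higher (14.3%) and 6 lower (21.4%). Ccl9, a chemokine of myeloid cells, rose by 2.08 (SE 0.24), and Cd40, the receptor for T cell help, fell by 1.33 (SE 0.26). Myc, a growth regulator, fell by 1.29 (SE 0.19). Glucocorticoid-induced genes gave 7 higher (28%) and 3 lower (12%) of 25, with a median of 0.07. Klf9, a direct target of that receptor, rose by 1.95 (SE 0.32), and Cxcr4, a chemokine receptor, fell by 1.76 (SE 0.16). With the liver and heart covariates 2 NF-kB and cytokine genes and 1 immediate early gene were called lower, and 2 glucocorticoid-induced genes higher.

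Counts in the remaining lists stand beside the 10.8% of all genes called in each direction. Of 32 core and linker histone genes 6 were called higher (18.8%) and 5 lower (15.6%), and of 25 tRNA synthetases 1 (4%) and 2 (8%). Heat shock and chaperone genes gave 6 higher (15%) and 4 lower (10%) of 40, and cholesterol synthesis genes 3 (13.6%) and 0 of 22. Of 15 neutrophil granule genes of precursors 3 were called higher (20%) and 2 lower (13.3%). The proteasome gave 4 higher (10%) and 3 lower (7.5%) of 40. Without Il10-/- 0 Gy replicate 4 the heat shock list had 11 called higher.

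Transcripts of liver and heart muscle, which do not belong to blood, were present at levels that differed widely between arrays. The mean level of 43 liver genes ran from −4.68 to 3.55 on the sham arrays, median −3.48, and from −3.30 to 5.53 on the irradiated ones, median 2.27. The mean of 23 heart genes ran from −4.70 to −2.75, median −3.96, and from −4.17 to 0.70, median −1.52.

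All 43 liver genes had a positive difference with a median of 4.36 (6.72 within WT and 1.82 within Il10-/-). Only 1 was called (2.33%, against 10.8% of all genes). It was Arg1 (4.51, SE 1.04), the arginase of the urea cycle and of some macrophages. Without Il10-/- 0 Gy replicate 4, 13 liver genes were called higher. Of the heart genes 8 were called higher (34.8%) and 1 lower (4.35%), with a median of 2.22, led by Tnnt2, cardiac troponin T (4.93, SE 1.14). All 8 rises were called only over both genotypes (3.84% of all genes). The number was 1 without WT 0 Gy replicate 1 and 13 without WT 7 Gy replicate 5. With replicates 1 and 2 averaged 1 heart gene was called higher, and neither Arg1 nor Tnnt2 was called.

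With the mean liver and heart levels as covariates, 3277 features were called, 1843 higher and 1434 lower. The interferon-stimulated genes then gave 43 called higher, the p53 targets 21, the B cell genes 25 lower and the erythroid genes 26 lower. The part of these tissue transcripts in the other differences was not tested.

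A difference between genotypes in the response was not called at any feature. The limma interaction term of dose and genotype gave 0 called features, with a smallest adjusted p of 0.393, while 2331 features had an unadjusted p below 0.05. That was so for 11.6% of the features called for dose and 9.73% of those not called. The absence of calls does not show that the genotypes responded alike, since a term of this kind is estimated with less precision than the pooled difference.

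Among Ifit3, Ifit1, Cdkn1a, Aen, Ccng1, Il18r1, Alas1, Acsbg1 and Gstt1, genes that the study also measured by PCR, Gstt1 had the smallest interaction p. Gstt1 is a glutathione transferase. It ran from −2.54 to 4.63 on the sham arrays, median 0.08, and from 0.21 to 4.04 on the irradiated ones, median 2.43. The pooled difference of 1.98 (SE 0.67, adjusted p = 0.0289) was not called, and it stood at 3.80 within WT and 0.15 within Il10-/-, with an interaction p of 0.0027 before adjustment. Acsbg1, an acyl-CoA synthetase, was not called either, at −1.09 (SE 0.31, adjusted p = 0.0116), nor was Alas1, the entry enzyme of heme synthesis, at −0.04 (SE 0.27). Il18r1, the interleukin 18 receptor, fell by 1.23 (SE 0.18, adjusted p = 5.24e-05).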

How the data were processed

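Cy3-labelled RNA, listed as that of 20 mice, was hybridised to 20 single-colour Agilent arrays. The authors deposited the scanner output of each array, with a processed intensity per spot that the software had corrected for background and not normalized between arrays. The labels name version 10.7 of Agilent Feature Extraction and the file headers name 12.0.2.2. The authors also deposited log2 values, filtered and scaled by array, which served as an alternative.

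Outlier spots were left out (53 values among the features tested), spots of a probe were averaged, and log2 intensities were centred on the median of 9228 probes well above background on all 20 arrays. That median was chosen because the median of all 39429 probes lies near background. A probe flagged as non-uniform or dim on at least 25% of arrays was dropped, which left 22997 features of 15273 genes. Gene symbols came from the array files and, for 28752 probes, from RefSeq accessions. The 1.5-fold filter of the study was an alternative, since it removes modest changes.

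Dose, genotype and replicate number were fitted with limma 3.58.1 in R 4.3.3 (lmFit, eBayes), and called at p below 0.001 and a Benjamini-Hochberg rate under 10%. The fits within a genotype had dose alone. Each of the 5 slides carried all 4 groups under the same replicate number and was scanned once, so the number stands for the slide. Deviations of arrays of a slide from their group means correlated by −0.12 to 0.41 on average over the 6 pairs of groups, and in no pair did all 5 slides exceed 0.1.

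Groups came from the sample titles. The members and gene lists were chosen with earlier results of these data known, so no list is independent evidence of its direction, and list counts and medians carry no test. The genes named are most of those of the study's PCR, and the 10 widest rises and falls without overlap between the doses (liver and heart genes left out). They also include the 8 modest rises and falls with the smallest p among features called in neither genotype alone. The 3 widest called rises and falls of each list were named too. Bst2 and the genes of the interferon and erythroid lists named beside them were chosen after their values were seen. Some genes that this rule names are not reported here. Of 208 named features, 11 lie on another chromosome than their gene in RefSeq. The fits were tested on simulated data. Alternatives changed the scaling, background correction, filter, slide term, array weights, covariates, threshold and the arrays included. The number of arrays limits the precision, and p-values measure the spread between these samples.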

Additional observations from a re-analysis of the deposited data

Results flagged for a closer look

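A single array stood far from the other 9 of its dose in 30 of the 494 sets of 10 values examined. The rule marks about 1 in 20 sets of independent values by chance. The sets here share their arrays and each holds both genotypes, so that rate does not apply. The 30 cases gathered on few arrays. Of them, 11 fell on WT 0 Gy replicate 4 and 7 on WT 0 Gy replicate 5, which were among the arrays with the fewest spots well above background. Il10-/- 0 Gy replicate 5 had 6.

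On WT 0 Gy replicate 4 the lowest sham levels were those of Atf3 (−4.745), Clk1 (−2.141), Cx3cr1 (−1.743) and Pfkm (−4.425). The same array was highest for Eef1d (6.382), Gadd45a (3.699), Gpx1 (10.99) and Nusap1 (4.147). It was also lowest in the mean level of the monocyte list (−1.005), the NF-kB list (−2.148) and the immediate early list (−2.149).

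WT 0 Gy replicate 5 was lowest for C1qa (−4.112), Derl1 (−2.135), Hnrnpk (−1.257) and Tpi1 (−0.5728), and highest for H1f5 (−0.6788), Ifi44 (−3.415) and Mutyh (−0.8278).

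Il10-/- 0 Gy replicate 5 was the lowest sham array for 4 lymphocyte genes and for H2-Ob. It stood at −3.338 for Bach2, 0.9275 for Ccr7, −1.07 for Dapl1 and −0.003668 for Lef1, and at −1.525 and −0.9118 for the 2 features of H2-Ob.

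Among the irradiated arrays, WT 7 Gy replicate 1 was lowest for Gzmb (−0.7225) and highest for H2-T10 (2.041). WT 7 Gy replicate 5 was highest in the mean of the monocyte list (0.7593). Il10-/- 7 Gy replicate 4 was highest for Ifit3b (1.704) and lowest in the mean of the DNA repair list (−3.632), and Il10-/- 7 Gy replicate 3 was lowest for Bmf (−4.837).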

How the results depend on the processing

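The direction of 205 of 207 named features held in every alternative run. The exceptions were Cd247, at −0.0366 with normexp, and Alas1, which was not called and ran from −0.22 to 0.21. The calls held less often than the direction. Of the 207 features, normexp lost the calls of 88 and the median of all probes those of 40. Among the genes whose calls normexp lost were Anxa8, Ifi44, H2-T22, H2-DMb2, Cd8a, Bach2, Il5ra, Mutyh, Fanca, Cdc45, Epor, Cd40 and Myc. Centring on the median of all probes gave 3134 called features (1533 lower, 1104 in neither genotype alone), and normexp gave 1482 (760 higher, 722 lower, 702 in neither alone). Keeping only features well above background on all arrays gave 2931 (1348 higher, 1583 lower, 916 in neither alone), by construction from fewer features. Array weights gave 8065 (3873 higher, 4192 lower, 4887 in neither alone) and a 5% rate alone gave 8839 (4014 higher, 4825 lower). The liver and heart covariates gave 1434 lower and 1077 in neither alone, averaging replicates 1 and 2 gave 1729 lower, and the authors' values gave 1742 lower. The causes were not tested. The shares called higher among these alternatives ran from 38.8% to 56.2%, with 40.1% under the 75th percentile and 53.2% under the distance from the reference array.

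When single arrays were left out, 4268 to 5420 features were called, 1931 to 2661 higher, 2290 to 3058 lower and 1598 to 2563 in neither genotype alone, the most without Il10-/- 0 Gy replicate 4. For the interaction the count was 0 in these and 1 without WT 0 Gy replicate 3, and 165 without the filter on dim probes. Without the replicate block 4997 features were called, and of the list counts of 5 or more the block moved that of the acute-phase genes, from 5 to 8, by more than 1.5 times. Without the 4 weak arrays, chosen after seeing the data, 4787 were called (1859 higher, 2928 lower). Of the genes named above, averaging replicates 1 and 2 lost the calls of Ptp4a3, Il2rb, Nkg7, Cd177, Aqp1, Ccnd3, Ldhb, Arg1 and Tnnt2, and the covariates lost Ddx46, Ptp4a3, Ddb2, Cd177, Aqp1, Rad51b, Eif5, Clk1, Ldhb, Pfkm, Klf9, Nr1d1, Myc, Bok, Arg1 and Tnnt2.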

Other observations

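Several genes that were called over both genotypes had wider differences within WT than within Il10-/-, though none of their interactions was called in limma. Gpx3, the glutathione peroxidase of plasma, rose by 2.23 (SE 0.32), with 3.16 within WT and 1.31 within Il10-/- with an interaction p of 0.00095 before adjustment. Ctsl, the lysosomal protease cathepsin L, rose by 2.58 (SE 0.47), with 3.87 and 1.30. Apoe, apolipoprotein E of liver and macrophages, rose by 2.49 (SE 0.58), with 3.97 and 1.02, a call lost in 15 of 38 alternatives, among them averaging replicates 1 and 2 and the liver and heart covariates. Cfb, complement factor B, rose by 4.23 (SE 0.59), with 5.72 and 2.74. Atg16l2, of the autophagy machinery, fell by 1.49 (SE 0.18), with −1.97 within WT and −1.01 within Il10-/-. The liver genes had the same order, with a median of 6.72 within WT and 1.82 within Il10-/-, and their part in these values was not tested.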
